A study of Homo sapiens with 26 samples.

Results

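Glutathione transferases join glutathione to electrophilic molecules, among them products of lipid peroxidation and many drugs, and several are used as tumour markers. The 9 genes described here are GSTM1, GSTM2, GSTM3 and GSTM4 of the mu class, GSTP1 (pi), GSTT1 (theta), GSTO1 (omega), GSTK1 (kappa) and the microsomal MGST1. They are 9 of the 63129 genes in the deposited expression table and were taken from it by symbol, in all 26 libraries. The members were chosen by measured values: GSTM3 was near 0 in clone 1 of A375 and GSTT1 was listed at 0 in NOMO-1. Clone 1 against parental A375 and A375 against NOMO-1 are therefore described here with no test.

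RNA was sequenced from A375, an established human melanoma line, and NOMO-1, a cell line of human acute myeloid leukaemia, each as parental cells and as cells that tolerate inhibition of BET bromodomain proteins. Clones 1 and 4 of A375, called resistant in the sample titles, are each a single clone, and the tolerant NOMO-1 cells are labelled a resistant clone. A375 cells of all 3 kinds were grown in DMEM with 10% FBS and taken untreated at 0 h, or after 6 h with DMSO, the solvent, or with 1 uM CPI203, a BET inhibitor. NOMO-1 cells were grown in RPMI with 20% FBS and taken after 24 h with DMSO or 1 uM CPI203, so line, medium and time cannot be told apart. Each of the 13 groups has 2 libraries. Nothing in the labels says that these came from separate cultures, so the p-values below measure spread between libraries that may be no more than technical repeats. The spread of a gene was estimated once over all groups of a line. It can thus be too small where the 2 libraries of a group differ more and too large where they differ less.

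The mu, pi, theta and omega enzymes are soluble proteins of the cytosol. GSTK1 lies in mitochondria and peroxisomes, and MGST1 is an unrelated membrane protein of the endoplasmic reticulum and the outer mitochondrial membrane that also reduces lipid hydroperoxides. The transcription factor NRF2, held back by KEAP1 in unstressed cells, is known to switch on many genes of glutathione metabolism through antioxidant response elements. GSTM1 and GSTT1 are known for common inherited deletions in people. Gene copy number was not measured here.

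Values are FPKM, fragments scaled to transcript length and to all mapped fragments. A gene was tested in a line if it reached 1 FPKM in at least 2 of that line's libraries. Differences are given as log2 of FPKM + 1 with the standard error (SE) from limma, n = 2 libraries per group, and a difference passed at a Benjamini-Hochberg adjusted p below 0.05 over all tested genes. This scale understates changes of genes near 1 FPKM. Read counts were not used, so depth is unknown. All 9 genes were tested in A375, GSTM1 and GSTM3 through the parental and clone 4 libraries. In NOMO-1 7 were tested, because GSTM1 and GSTT1 were under the filter.

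Of the markers of the named lines, A375 libraries held SOX10 at 126 to 318 FPKM and S100B at 17.9 to 83.4, while the pigment genes TYR, DCT and MLANA were at 0.470 or lower. NOMO-1 libraries held the myeloid genes SPI1 at 33.9 to 189 FPKM and CD33 at 29.3 to 76.4, with CD14 at 0.723 or lower, and CD33 also reached 35.0 FPKM in A375. Over the NOMO-1 libraries the myeloid genes LYZ and MPO ranged from 22.0 to 1438 and from 1.67 to 436 FPKM, and their part in the results was not tested. Of the markers of epithelial, lymphoid and erythroid cells, the highest value was 1.65 FPKM, for CD3E in NOMO-1. FPKM summed to between 417391 and 637916 per library. In 3 A375 groups the replicates were less alike: the median absolute log2 difference between them was 0.225 in parental DMSO, 0.299 in clone 4 DMSO and 0.234 in clone 4 CPI203, against 0.0621 to 0.118 in the other 6 A375 groups. As an alternative, replicate 1 of parental DMSO, replicate 1 of clone 4 DMSO and replicate 2 of clone 4 CPI203 were left out together. Their FPKM sums were 555182, 637916 and 581363, against 511815, 532253 and 533896 in the other replicate of each group. With 2 libraries per group the spread cannot show which of a pair is off. Without these 3 libraries the 3 groups keep 1 library each and the fit loses its widest replicate differences, so smaller p-values follow from the choice. Values without them are given below as log2 differences only. Their part in the results was not tested beyond that. In bulk RNA, a lower level in every cell cannot be told apart from fewer expressing cells.

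The mu genes stand side by side on chromosome 1. In the deposited hg19 coordinates GSTM4 (ENSG00000168765) spans chr1:110198703-110208118, GSTM2 (ENSG00000213366) chr1:110210644-110252171, GSTM1 (ENSG00000134184) chr1:110230436-110251661 and GSTM3 (ENSG00000134202) chr1:110276554-110284384. The GSTM1 interval lies wholly inside that of GSTM2, and the GSTM3 interval overlaps that of GSTM5, which was at 0.336 FPKM or lower in A375. GSTP1 (ENSG00000084207) spans chr11:67351066-67354131, GSTO1 (ENSG00000148834) chr10:105995114-106027217 and MGST1 (ENSG00000008394) chr12:16500076-16762193, and the interval of MGST1 also holds that of RP11-473N11.2. The coding sequences of 3 of the genes are close to each other, and the same stretch near the start of each is shown so that the likeness can be seen. Capitals mark bases that differ from GSTM1 in the ungapped stretch, which is coding bases 1 to 60 of GSTM1, GSTM2 and GSTM4 and bases 13 to 72 of GSTM3 (GENCODE release 29).
GSTM1: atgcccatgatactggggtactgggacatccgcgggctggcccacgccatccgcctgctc
GSTM2: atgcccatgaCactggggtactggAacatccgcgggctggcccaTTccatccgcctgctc
GSTM4: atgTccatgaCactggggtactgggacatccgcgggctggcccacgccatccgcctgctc
GSTM3: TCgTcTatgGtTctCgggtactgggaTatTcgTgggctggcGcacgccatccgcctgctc

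Over these 60 bases GSTM4 differed from GSTM1 at 2 positions, GSTM2 at 4 and GSTM3 at 11. Over the whole coding sequence GSTM1 was 92.1% identical to GSTM4 and 90.0% to GSTM2, but 72.4% to GSTM3. All 50-base windows of each coding sequence were searched for exactly in transcripts of the other members and GSTM5. Found were 36.2% of those of GSTM1, 65.1% of GSTM2 and 27.5% of GSTM4. None of those of GSTM3, GSTP1, GSTO1, GSTK1 or MGST1 were found. GSTT1 was not assessed, since no coding sequence was found for it. How fragments that match several genes were divided is not given in the sources used here, so levels of GSTM1, GSTM2 and GSTM4 are uncertain relative to each other, and those of GSTM3 are less exposed to this.

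The 250 bases before the RefSeq start of GSTM1, GSTM2 and GSTM4 (GRCh38.p14, plus strand) are shown because these genes were lower together in untreated clone 4. Capitals mark the only match of TGACNNNGC, the core of the antioxidant response element, searched on both strands.
GSTM1, chr1:109687567-109687816: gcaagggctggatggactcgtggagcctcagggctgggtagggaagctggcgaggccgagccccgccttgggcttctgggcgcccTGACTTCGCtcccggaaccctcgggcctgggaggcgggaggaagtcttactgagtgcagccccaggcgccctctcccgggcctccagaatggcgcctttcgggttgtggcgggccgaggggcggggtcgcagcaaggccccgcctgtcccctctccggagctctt
GSTM2, chr1:109667807-109668056: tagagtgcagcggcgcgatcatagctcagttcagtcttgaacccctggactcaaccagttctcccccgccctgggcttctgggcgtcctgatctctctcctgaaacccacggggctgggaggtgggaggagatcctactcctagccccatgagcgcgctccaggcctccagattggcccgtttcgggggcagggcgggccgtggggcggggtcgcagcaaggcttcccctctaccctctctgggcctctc
GSTM4, chr1:109655849-109656098: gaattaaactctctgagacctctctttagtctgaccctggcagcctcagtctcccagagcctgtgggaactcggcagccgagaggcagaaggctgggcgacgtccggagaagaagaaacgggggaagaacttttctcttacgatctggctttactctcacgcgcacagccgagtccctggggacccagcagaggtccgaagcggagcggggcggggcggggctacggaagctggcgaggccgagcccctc

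The match before GSTM1 starts 165 bases from the gene start, and the windows of GSTM2 and GSTM4 hold none. GSTP1 has 1 match, 66 bases from its RefSeq start, GSTO1 has 2, and the windows of GSTK1, MGST1 and GSTM3 have none. The RefSeq and GENCODE starts lay 522 bases apart for GSTM3, 217 for GSTP1, 157 for GSTO1 and 27 to 636 for MGST1. Matches there thus depend on the start used. For GSTM1, GSTM2, GSTM4 and GSTK1 the starts lay 18 bases apart or fewer. Of 35116 RefSeq windows of this length, 10.9% hold the letters. RefSeq windows were found for 8 of the 9 genes. The window of GSTM1 holds 19 CpG dinucleotides, that of GSTM2 14 and that of GSTM4 18, against a median of 11 over all windows.

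Among the 9 genes GSTP1 had the highest level per length in every library, from 250 FPKM in an untreated parental A375 library to 637 in a clone 4 library with DMSO. GSTO1, which acts on arsenic compounds and dehydroascorbate, ranged from 62.8 to 170 FPKM. GSTK1 spanned 10.3 to 90.4 FPKM and MGST1 14.9 to 193 FPKM. These 4 were above 1 FPKM in all 26 libraries, as was GSTM4 at 6.21 to 15.3 FPKM. GSTM1, GSTM2 and GSTM3 were below 1 FPKM in some libraries, and GSTT1 was at 10.5 to 22.1 FPKM in A375 and listed at 0 in all 8 NOMO-1 libraries.

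Ordered by group mean, MGST1 ran from parental NOMO-1 with DMSO (191 FPKM) down to parental A375 with CPI203 (15.3 FPKM), and in 10 of its 12 neighbouring pairs of groups the libraries did not overlap. For GSTM3 they did not overlap in 7 of 12 pairs. Its highest group was untreated clone 4 (52.5 FPKM), followed by clone 4 with CPI203 (33.7) and with DMSO (29.0), which overlapped each other. The 3 parental A375 groups (15.9, 15.7 and 12.3) each overlapped a neighbour in the order, with parental NOMO-1 cells in CPI203 (13.8) among them, and the 3 clone 1 groups were last, at 0.0797 FPKM or lower. For GSTP1 1 of 12 neighbouring pairs was apart, and for GSTT1 2, where the NOMO-1 groups, all listed at 0, overlap by construction. Such pairs were not counted over all genes, so these counts are descriptions only.

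**Figure D1:**
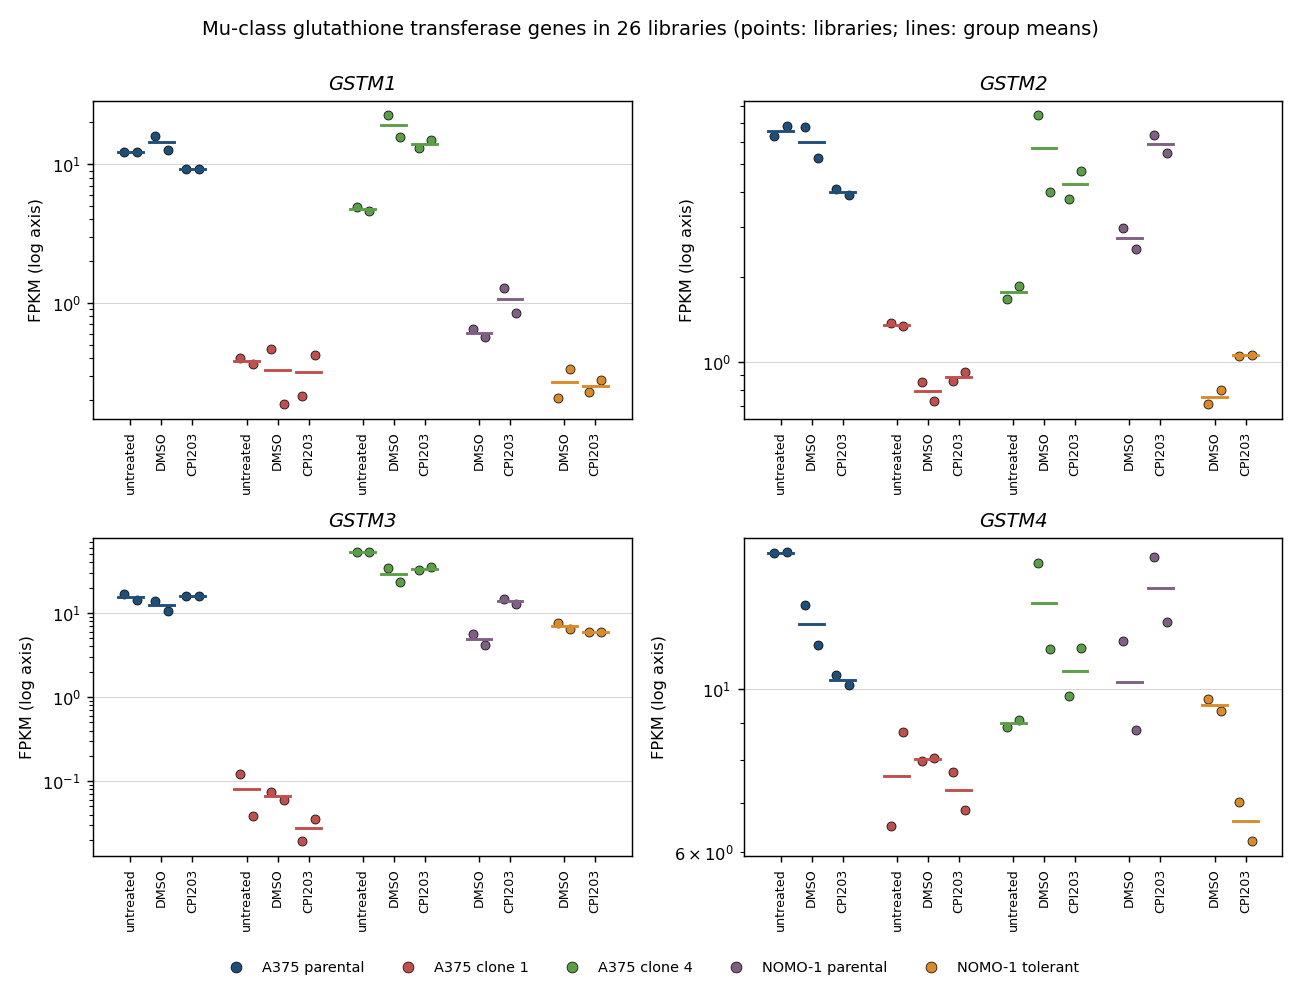
FPKM on a log axis of the 4 mu-class genes in the 13 groups; points are the 2 libraries of a group and lines their mean. GSTM1 and GSTM3 in the 6 clone 1 libraries lie below every parental and clone 4 library, and GSTM3 in the 6 clone 4 libraries lies above all others.

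**Figure D2:**
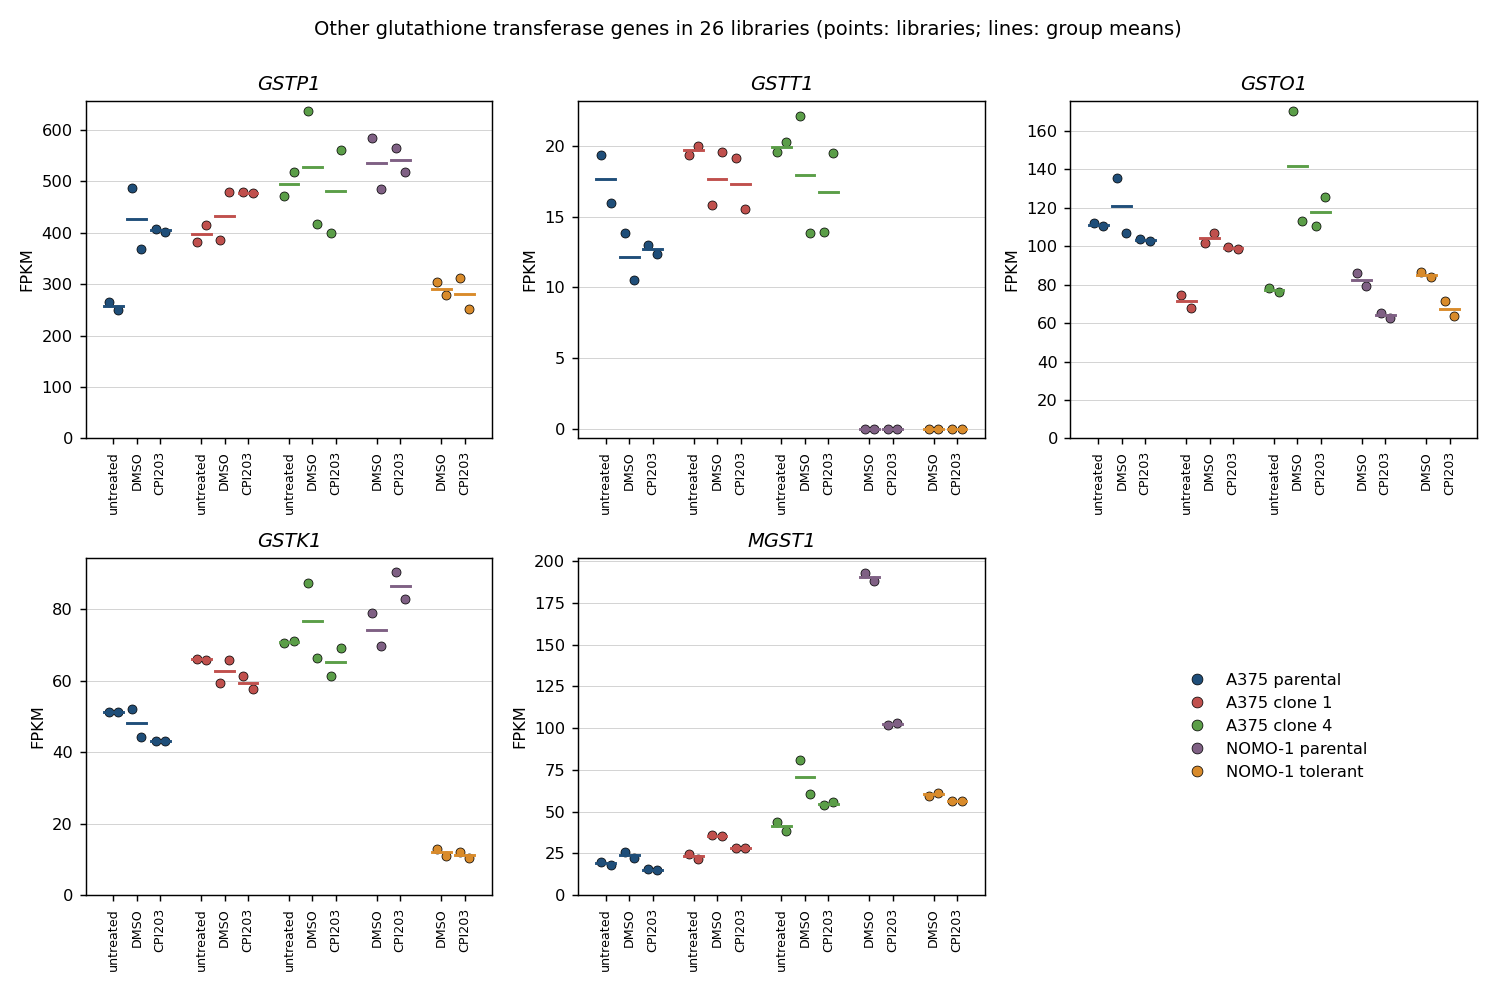
FPKM on linear axes of GSTP1, GSTT1, GSTO1, GSTK1 and MGST1 in the 13 groups; points are the 2 libraries of a group and lines their mean. GSTT1 is listed at 0 in all 8 NOMO-1 libraries, and GSTK1 in the 4 tolerant NOMO-1 libraries lies at 10.3 to 13.0 FPKM, below all other libraries.

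All 4 mu genes were lower in clone 1 of A375 than in parental cells. GSTM3, a mu enzyme known from brain and testis, was at 0.120 and 0.0389 FPKM in untreated clone 1 libraries, 0.0741 and 0.0603 with DMSO, and 0.0193 and 0.0356 with CPI203. Parental libraries held 16.9 and 14.4 untreated, 13.9 and 10.6 with DMSO, and 15.9 and 16.0 with CPI203. The clone 1 libraries were thus low in all 3 conditions, with parental means 196 times, 182 times and 581 times theirs, ratios that rest on clone 1 values close to 0.

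GSTM1, which detoxifies epoxides and other carcinogen products, was at 0.186 to 0.467 FPKM in the 6 clone 1 libraries and at 9.24 to 16.0 in the 6 parental ones. Its parental mean was 32.1, 43.9 and 29.0 times that of clone 1 untreated, with DMSO and with CPI203. GSTM2 was at 0.729 to 1.38 FPKM against 3.89 to 6.80, or 4.82, 7.59 and 4.48 times lower. The difference was smaller for GSTM4, at 6.51 to 8.74 FPKM against 10.1 to 15.3, or 2.01, 1.52 and 1.41 times lower. None of the 4 mu genes overlapped between clone 1 and parental libraries in any condition. Over all tested A375 genes both clone 1 libraries lay below both parental ones for 49.3% untreated, 27.7% with DMSO and 36.8% with CPI203, and a mean at least 4-fold lower without overlap occurred for 6.05%, 2.62% and 2.26%.

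Outside the mu class the genes differed in direction. GSTK1 was higher in clone 1 in all 3 conditions, 1.29, 1.30 and 1.38 times the parental mean, as was MGST1, at 1.21, 1.49 and 1.85 times, with no overlap. Both clone 1 libraries lay above both parental ones for 31.2%, 29.3% and 39.1% of all genes. GSTP1 was higher untreated and with CPI203 and overlapped with DMSO, GSTT1 overlapped untreated and was higher in the other conditions, and GSTO1 was lower untreated, by 1.56 times, and with CPI203, by 1.04 times, and overlapped with DMSO. The 28 tested genes within 1 Mb of GSTM3 had median log2 differences of -0.48, -0.42 and -0.49, and 24, 23 and 22 of them had values below 0, untreated, with DMSO and with CPI203. All 1732 tested genes of chromosome 1 had medians of -0.40, -0.25 and -0.26, and all tested genes -0.12, 0.02 and 0.01. The share of genes below 0 was not counted for these wider sets.

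In untreated cells 8 of the 9 genes differed between clone 4 and parental A375 (4 higher, 4 lower), where 51.1% of all genes passed, 20.7% higher and 30.4% lower. GSTM3 was at 52.4 and 52.6 FPKM in clone 4 against 16.9 and 14.4 in parental cells. That is 3.35-fold higher (log2 difference 1.69 ± 0.16 SE, adjusted p = 1.57e-06). The other mu genes were lower: GSTM1 at 4.93 and 4.57 against 12.1 and 12.3 FPKM (log2 difference -1.20 ± 0.16, adjusted p = 4.47e-05), GSTM2 at 1.67 and 1.86 against 6.31 and 6.80 (-1.45 ± 0.19, adjusted p = 3.52e-05) and GSTM4 at 8.89 and 9.07 against 15.3 and 15.3 (-0.71 ± 0.14, adjusted p = 0.000944). GSTM3 and its 3 neighbours thus differed from parental cells in opposite directions, and no library overlapped.

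MGST1 was at 43.6 and 38.7 FPKM in untreated clone 4 cells against 20.1 and 18.3 in parental ones, 2.14-fold higher (log2 1.06 ± 0.13, adjusted p = 1.47e-05). GSTP1, the commonest transferase of many tumours, was at 472 and 518 against 264 and 250 FPKM (1.93-fold, log2 0.94 ± 0.20, adjusted p = 0.00169). GSTK1 was at 70.4 and 71.2 against 51.1 and 51.3 FPKM (log2 0.46 ± 0.12, adjusted p = 0.0059). GSTO1 was lower, at 78.2 and 76.4 against 112 and 110 FPKM (log2 -0.52 ± 0.16, adjusted p = 0.0139), a call that was lost when any of the 4 compared libraries was left out. GSTT1, at 19.6 and 20.3 against 19.4 and 16.0 FPKM, did not pass. The median over the 9 genes was 0.17, against -0.08 over all genes.

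With DMSO 3 of the 9 genes differed between clone 4 and parental A375, all higher, where 31.4% of all genes passed, 15.4% higher and 16.0% lower. GSTM3 was at 34.5 and 23.4 FPKM against 13.9 and 10.6 (2.36-fold, log2 1.16 ± 0.16, adjusted p = 0.000101). MGST1 was at 81.1 and 60.8 against 25.8 and 22.2 FPKM (2.96-fold, log2 1.51 ± 0.13, adjusted p = 1.16e-06), and GSTK1 at 87.2 and 66.3 against 52.0 and 44.2 FPKM (1.59-fold, log2 0.65 ± 0.12, adjusted p = 0.00102). These 3 were higher in clone 4 in both conditions, without overlap of the libraries. In a fit of the compared libraries alone GSTM3 (adjusted p = 0.0591) and GSTK1 (adjusted p = 0.156) did not pass. Without the 3 libraries the log2 differences were 1.07 for GSTM3, 1.42 for MGST1 and 0.57 for GSTK1. Without clone 4 DMSO replicate 2, GSTM1 (0.63), GSTP1 (0.59), GSTT1 (0.82) and GSTO1 (0.50) passed as higher too. In CPI203 clone 4 was not tested against parental cells; GSTM3 was at 32.1 and 35.4 FPKM against 15.9 and 16.0, and MGST1 at 53.9 and 55.5 against 15.7 and 14.9.

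**Figure D3:**
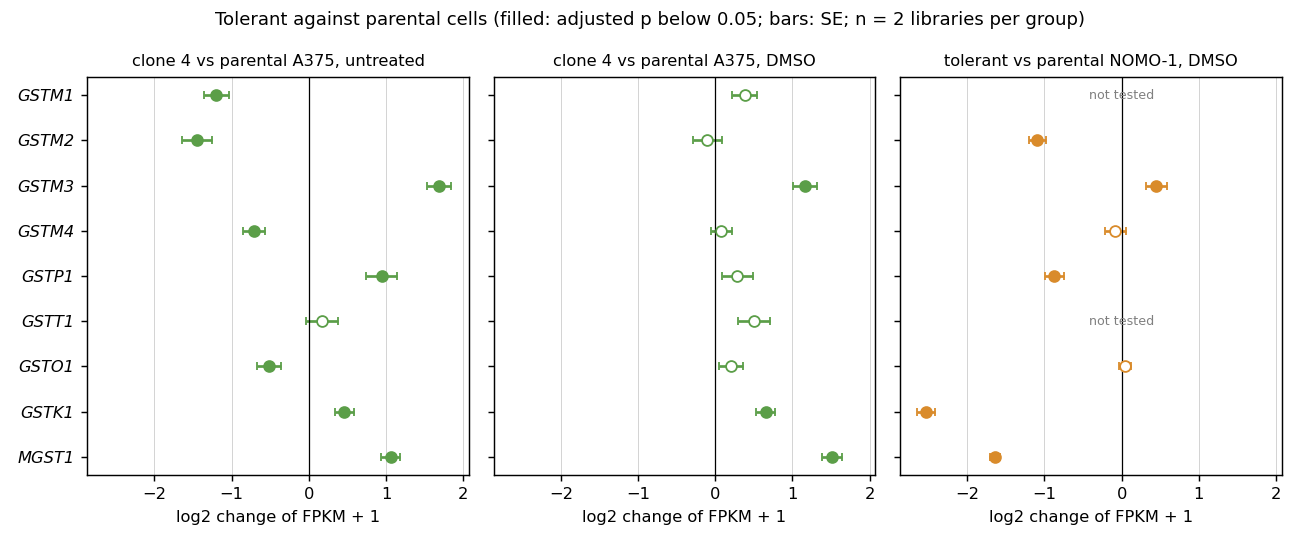
Log2 difference of FPKM + 1 between tolerant and parental cells for each gene, with SE bars and n = 2 libraries per group; filled points passed at an adjusted p below 0.05. MGST1 is higher in clone 4 of A375 (1.06 untreated, 1.51 with DMSO) and lower in tolerant NOMO-1 (-1.64), where GSTK1 has the lowest value (-2.53).

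In clone 4 the mu genes also differed between cells at 6 h with DMSO and untreated cells at 0 h. That pair differs at least in time and solvent. TBX10, near GSTP1, was at 1.22 and 1.13 FPKM in untreated clone 4 cells, 0.102 and 0.152 with DMSO and 1.67 and 1.74 with CPI203. Untreated parental cells held 0.0913 and 0.127. For NUDT8, also near GSTP1, the DMSO libraries of clone 4 overlapped those of both other conditions. Whether untreated clone cells had met a BET inhibitor before 0 h was not tested, which also bears on their comparison with untreated parental cells. GSTM1 was at 22.5 and 15.8 FPKM with DMSO against 4.93 and 4.57 untreated (4.03-fold higher, log2 1.79 ± 0.16, adjusted p = 5.82e-06). GSTM2 was at 7.44 and 3.99 against 1.67 and 1.86 FPKM (3.23-fold, log2 1.23 ± 0.19, adjusted p = 0.000315). GSTM3 was lower with DMSO, at 34.5 and 23.4 against 52.4 and 52.6 FPKM (log2 -0.86 ± 0.16, adjusted p = 0.00106). GSTM1 and GSTM2 of clone 4, lower than parental cells untreated, did not pass against parental cells with DMSO; whether those comparisons differ was not tested.

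Altogether 6 of the 9 genes passed in that comparison (5 higher, 1 lower), where 41.3% of all genes passed (28.3% higher, 13.0% lower) and the median of all genes was 0.11. GSTO1 (0.84 ± 0.16, adjusted p = 0.00112, or 0.0527 with the compared libraries alone) and MGST1 (0.76 ± 0.13, adjusted p = 0.000534) were higher. GSTM4 (0.48 ± 0.14, adjusted p = 0.0152) passed, but did not after quantile normalization (adjusted p = 0.0746). Its call was also lost after median-ratio scaling (0.0721), correction for length and GC content (0.0683) and with the compared libraries alone (0.112). The same held without either untreated replicate or DMSO replicate 1 of clone 4 (adjusted p = 0.0590 to 0.146). Without the 3 libraries GSTM1 was at 1.54, GSTM2 at 0.85, GSTM3 at -1.13, GSTM4 at 0.30 and GSTO1 and MGST1 at 0.55 on the log2 scale.

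The same pair of conditions gave 2 genes in clone 1, of the 7 other than GSTM1 and GSTM3, which were at 0.467 FPKM or lower there, where 43.2% of all genes passed (30.3% higher, 12.9% lower) and the median of all genes was 0.15. MGST1 was at 36.0 and 35.3 FPKM against 25.0 and 21.6 (log2 0.60 ± 0.13, adjusted p = 0.00218). GSTO1 was at 102 and 107 against 74.8 and 67.8 FPKM (log2 0.54 ± 0.16, adjusted p = 0.0133), and did not pass after median-ratio scaling (log2 0.36, adjusted p = 0.0951), which moved the median of all genes to 0. In parental A375, 1 of 9 passed, where 22.5% of all genes did, 12.2% higher and 10.3% lower. It was GSTP1, at 486 and 367 with DMSO against 264 and 250 FPKM (log2 0.72 ± 0.20, adjusted p = 0.0233), and it did not pass without DMSO replicate 1 or either untreated replicate (adjusted p = 0.0867 to 0.189). Without the 3 libraries the log2 differences there were 0.51 for GSTP1, -0.70 for GSTT1, -0.51 for GSTM3, -0.38 for GSTM4 and -0.21 for GSTK1.

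In parental A375 2 of the 9 genes were lower after 6 h with CPI203 than with DMSO, where 36.4% of all genes passed, 15.0% higher and 21.4% lower. MGST1 was at 15.7 and 14.9 FPKM with CPI203 against 25.8 and 22.2 with DMSO (log2 -0.62 ± 0.13, adjusted p = 0.00224). GSTM1 was at 9.24 and 9.25 against 16.0 and 12.6 FPKM (log2 -0.57 ± 0.16, adjusted p = 0.0156), a call lost with a pseudocount of 0.1 (adjusted p = 0.127) and without parental DMSO replicate 1 or either CPI203 replicate (adjusted p = 0.0687 to 0.138). Both genes were lower in each CPI203 library than in either DMSO library. Without the 3 libraries MGST1 was at -0.51, GSTM1 at -0.41, GSTM2 at -0.33 and GSTM3 at 0.54. The median over the 9 genes was -0.22, against -0.04 over all genes.

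For CPI203 none of the 9 genes passed in clone 4, where 23.6% of all genes did. In clone 1, where 22.0% of all genes passed, none did either. There GSTM1 and GSTM3 were at 0.467 FPKM or lower in all libraries and had little room to fall on this scale. GSTM2, at 0.729 to 0.926 FPKM with DMSO or CPI203, had limited room too, so at most 7 genes bear on that count. MGST1 was at 28.3 and 28.2 FPKM with CPI203 against 36.0 and 35.3 with DMSO in clone 1, and at 53.9 and 55.5 against 81.1 and 60.8 in clone 4. Its CPI203 libraries lay below its DMSO libraries in all 3 A375 populations. In clone 4 the count depended on the DMSO libraries, with 6 genes passing without DMSO replicate 2 and 1 (GSTM3) without DMSO replicate 1. The differences of the CPI203 effect between each clone and parental cells gave 0 of 9 for clone 4, where 2.29% of all genes passed. For clone 1, where 1.91% passed, the count was also 0. For GSTM1 and GSTM3 that difference holds little but the parental change. For GSTM2, at 0.08 in clone 1 and -0.48 in parental cells, the low clone 1 level limits it too. With limma at an unadjusted p below 0.05 the counts were 1 (MGST1) for CPI203 in clone 1 and 2 (MGST1 and GSTM1) in clone 4, and 1 (GSTM1, clone 1) and 0 for the differences of effects. In clone 1 MGST1 passed in the fit of the compared libraries alone (adjusted p = 0.00393).

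In parental NOMO-1 after 24 h with CPI203, 5 of the 7 tested genes passed (3 higher, 2 lower), where 60.0% of all genes did, 27.0% higher and 33.0% lower. GSTM3 was at 14.7 and 12.9 FPKM with CPI203 against 5.66 and 4.21 with DMSO (2.80-fold higher, log2 1.33 ± 0.14, adjusted p = 3.99e-05). GSTM2 was at 6.35 and 5.47 against 2.99 and 2.50 FPKM (2.15-fold higher, log2 0.88 ± 0.11, adjusted p = 0.000161). GSTM4, at 15.1 and 12.3 against 11.6 and 8.79 FPKM, was higher by 0.40 ± 0.14 (adjusted p = 0.0351), a call lost with no filter on low values (adjusted p = 0.10) and without parental CPI203 replicate 1 or parental DMSO replicate 2. The untested GSTM1 was at 1.28 and 0.853 against 0.645 and 0.568 FPKM. Since GSTM1, GSTM2 and GSTM4 share stretches of sequence, their values are not separate observations.

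MGST1 went the other way, at 102 and 103 FPKM with CPI203 against 193 and 188 with DMSO (1.86-fold lower, log2 -0.89 ± 0.07, adjusted p = 6.22e-06). GSTO1 was at 65.1 and 62.8 against 85.9 and 79.3 FPKM (log2 -0.36 ± 0.08, adjusted p = 0.00438). GSTP1, at 565 and 519 against 584 and 485 FPKM, and GSTK1, at 90.4 and 82.7 against 78.9 and 69.6, did not pass. GSTK1 did pass as higher with the replicate number as a block (0.22, adjusted p = 0.0129), after quantile normalization (0.40, adjusted p = 0.00439), after median-ratio scaling (0.28, adjusted p = 0.0332) and after correction for length and GC content (0.35, adjusted p = 0.00847), and GSTP1 after quantile normalization (0.20, adjusted p = 0.0174) and that correction (0.37, adjusted p = 0.000177). The median over the 7 genes was 0.22, against -0.05 over all genes.

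In tolerant NOMO-1 2 of the 7 genes were lower with CPI203 and none higher, where 39.2% of all genes passed, 18.4% higher and 20.7% lower. GSTM4 was at 7.03 and 6.21 FPKM with CPI203 against 9.69 and 9.34 with DMSO (log2 -0.47 ± 0.14, adjusted p = 0.0267), and GSTO1 at 71.6 and 63.6 against 86.4 and 84.1 (log2 -0.33 ± 0.08, adjusted p = 0.0109). Both calls were lost without tolerant DMSO replicate 1, tolerant DMSO replicate 2 or tolerant CPI203 replicate 2, when no gene of the 7 passed. GSTM3 was at 5.98 and 5.98 against 7.61 and 6.52 FPKM, and MGST1 at 56.2 and 56.4 against 59.5 and 61.2.

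The CPI203 effect itself differed between tolerant and parental NOMO-1 for 4 of the 7 genes (1 higher, 3 lower), where 31.8% of all genes passed, 16.9% higher and 14.9% lower. For GSTM3 the difference of effects was -1.53 ± 0.19 (adjusted p = 0.000463), for GSTM4 -0.86 ± 0.20 (adjusted p = 0.0106) and for GSTM2 -0.65 ± 0.16 (adjusted p = 0.0136). The GSTM2 call was lost with a pseudocount of 0.1 (adjusted p = 0.0717), without parental CPI203 replicate 1 (0.0584) and without tolerant DMSO replicate 2 (0.0597). The 3 mu genes were higher with CPI203 in parental cells, and in tolerant cells GSTM3 and GSTM4 had no CPI203 library above a DMSO library, while GSTM2 was at 1.05 and 1.06 FPKM with CPI203 against 0.712 and 0.800 with DMSO. For MGST1 the difference was 0.79 ± 0.09 (adjusted p = 0.000341), with a fall in parental cells and a tolerant DMSO level below the parental CPI203 level.

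**Figure D4:**
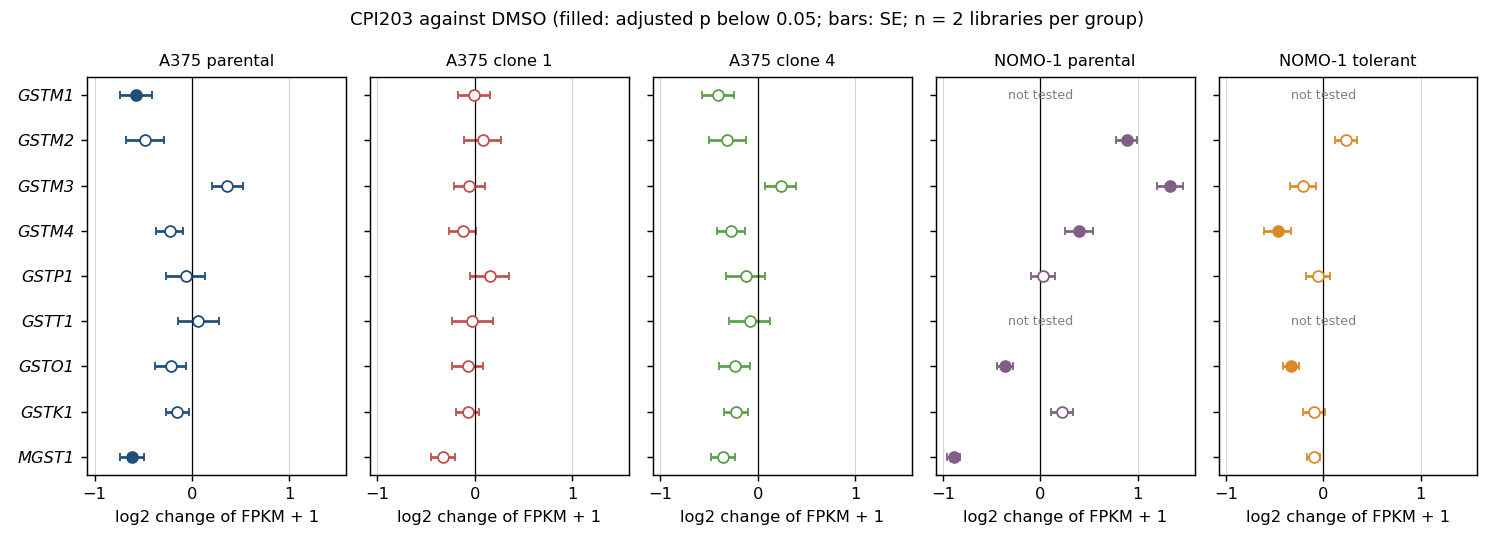
Log2 change of FPKM + 1 with CPI203 against DMSO for each gene in the 5 cell populations, with SE bars and n = 2 libraries per group; filled points passed at an adjusted p below 0.05. GSTM3 (1.33) and GSTM2 (0.88) have the highest values, in parental NOMO-1, and MGST1 (-0.89) the lowest there.

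Tolerant and parental NOMO-1 cells in DMSO differed for 5 of the 7 tested genes (1 higher, 4 lower), where 64.4% of all genes passed, 28.2% higher and 36.2% lower. GSTK1, which acts in mitochondria and peroxisomes, was at 13.0 and 11.0 FPKM in tolerant cells against 78.9 and 69.6 in parental ones, 6.18-fold lower (log2 -2.53 ± 0.11, adjusted p = 1.06e-07). MGST1 was at 59.5 and 61.2 against 193 and 188 FPKM, 3.16-fold lower (log2 -1.64 ± 0.07, adjusted p = 5.54e-08). With CPI203 GSTK1 was at 12.1 and 10.3 FPKM in tolerant cells, so all 4 tolerant libraries lay below every parental one.

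GSTM2 was at 0.712 and 0.800 FPKM in tolerant cells against 2.99 and 2.50 (3.63-fold lower, log2 -1.09 ± 0.11, adjusted p = 2.81e-05), and GSTP1 at 303 and 279 against 584 and 485 (1.84-fold lower, log2 -0.87 ± 0.12, adjusted p = 0.000205). GSTM3 was higher, at 7.61 and 6.52 against 5.66 and 4.21 FPKM (log2 0.45 ± 0.14, adjusted p = 0.0157), a call lost without tolerant DMSO replicate 1 or parental DMSO replicate 2. GSTM4 and GSTO1 did not pass. The median over the 7 genes was -0.87, against -0.07 over all genes.

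GSTK1 (ENSG00000197448) lies at chr7:142941186-142967947 in hg19, and the genes around it were lower in tolerant NOMO-1 too. Within 1 Mb, a width chosen after the values were seen, 10 of the 12 other tested genes passed as lower, where 36.2% of all genes did. The other 2 had values below 0. The median log2 difference of the 12 was -1.59, against -0.17 over the 850 tested genes of chromosome 7. Among them EPHA1, a receptor tyrosine kinase, differed by -2.52, EPHB6, of the same receptor family, by -1.95, ZYX, a focal adhesion protein, by -1.67, CASP2, a caspase, by -1.25 and FAM131B by -2.14. EPHA1 overlaps an antisense gene, EPHA1-AS1 (-2.34), and without strand their reads cannot be told apart. CLCN1, a chloride channel, had a mean of 1.82 FPKM in parental cells and was listed at 0 in tolerant cells. EPHB6, FAM131B, EPHA1, EPHA1-AS1, FAM115B and FAM115A had tolerant DMSO means of 0.0288 to 0.561 FPKM. Like CLCN1 they were tested only because other libraries reached 1 FPKM, which favours a lower call. The count and the median rest in part on them. CASP2 (22.8 to 8.98 FPKM), ZYX (107 to 32.8) and AC093673.5 (9.85 to 1.37) had means above 1 FPKM in both. The genes within 1 Mb of MGST1 on chromosome 12 had a median of -0.75, with 5 of 8 passing as lower. The 29 near GSTT1 on chromosome 22 had a median of -0.01, with 5 passing as lower, against the same 36.2% of all genes.

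**Figure D5:**
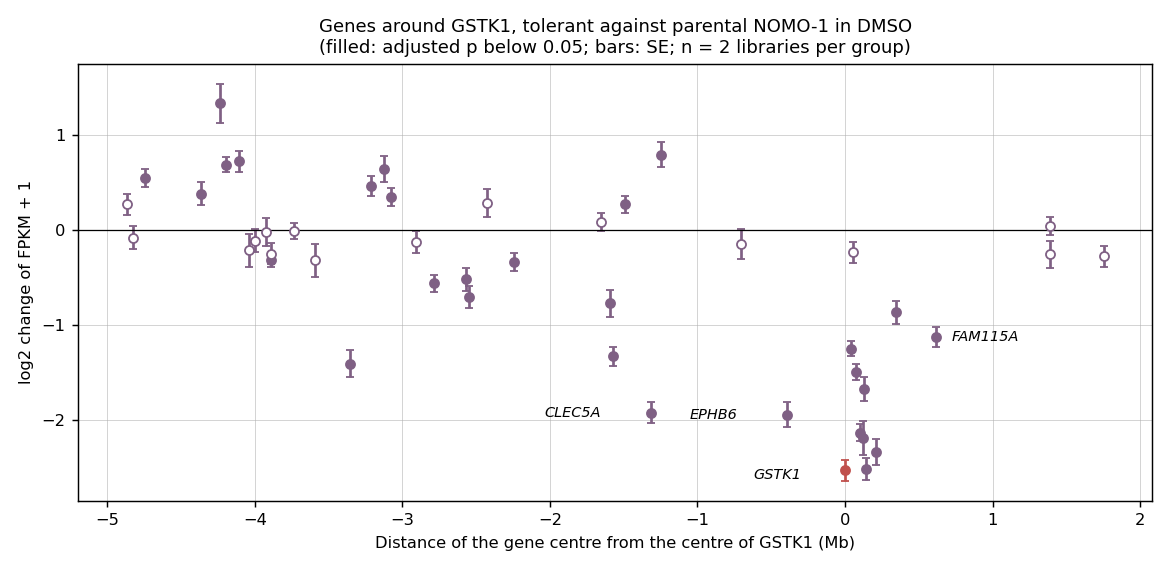
Log2 difference of FPKM + 1 between tolerant and parental NOMO-1 in DMSO for tested genes within 5 Mb of GSTK1, by distance in Mb, with SE bars and n = 2 libraries per group; filled points passed at an adjusted p below 0.05. Genes from EPHB6 (-1.95) to FAM115A (-1.13) lie below 0 around GSTK1 (-2.53).

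GSTT1 (ENSG00000184674) spans chr22:24376133-24384680 in hg19. In A375 it was at 10.5 to 19.4 FPKM in parental cells, 15.5 to 20.0 in clone 1 and 13.8 to 22.1 in clone 4, and it passed in none of the 10 A375 comparisons tested with limma, with an unadjusted p below 0.05 in 2. For DMSO against untreated, its log2 difference without the 3 libraries was -0.70 in parental cells and -0.50 in clone 4. With all libraries it was -0.51 and -0.18. Of its theta-class relatives on the same stretch, GSTT2B was read in parental NOMO-1 at 0.601 and 0.399 FPKM with DMSO and 1.13 and 0.846 with CPI203, and in tolerant NOMO-1 was listed at 0 in 3 of 4 libraries and at 0.0122 in the other. GSTT2 was at 0.563 and 0.479 FPKM in parental NOMO-1 with DMSO and at 1.17 and 0.909 with CPI203, and in tolerant NOMO-1 it too was listed at 0 in 3 of 4 libraries, with 0.0123 in the other. GSTT2 and GSTT2B are near-identical copies, so how their reads were split is uncertain. Other genes of that stretch were measured well above 0 in NOMO-1: DDT, a tautomerase, was lower in tolerant cells (log2 -1.03, adjusted p = 0.00011) and CABIN1, a calcineurin inhibitor, was higher (0.77).

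Of genes related by pathway, more of the NRF2 list were higher than lower in clone 4. Of 19 tested genes 13 were higher and 3 lower than in untreated parental A375, where 20.7% of all genes were higher and 30.4% lower, and 12 and 3 with DMSO, where 15.4% and 16.0% were, with a median of 0.89 untreated against -0.08 over all genes. HMOX1, which breaks down haem, had a mean of 18.6 against 2.32 FPKM (log2 2.56) and NQO1, a quinone reductase, 1755 against 502 (1.80). In the same comparison 6 of 15 genes of glutathione synthesis and cystine supply were higher and 8 lower. GCLM, the modifier subunit of glutamate-cysteine ligase, was at 2.76 and SLC3A2, the heavy chain of the cystine carrier, at 2.63 on the log2 scale. CBS, which starts transsulfuration, was at -2.43. Of 15 peroxidases, reductases and glutaredoxins 9 were higher and 3 lower, with GPX4, the lipid hydroperoxidase, at 1.24.

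In parental NOMO-1 12 of 19 NRF2-list genes were higher and 5 lower with CPI203, where 27.0% of all genes were higher and 33.0% lower, with a median of 0.52 against -0.05 over all genes. NQO1 went from a mean of 70.6 to 298 FPKM (log2 2.07 ± 0.14) and AKR1C3, an aldo-keto reductase, from 3.56 to 14.7 (1.78). In tolerant NOMO-1, 3 were higher and 6 lower with CPI203, where 18.4% and 20.7% of all genes were. The effect differed from that in parental cells for 13 of 19 genes, 11 of them lower, where 31.8% of all genes passed and 14.9% were lower. Among the 11 were AKR1C3 (-2.36), AKR1C1 (-2.04), ME1, a source of NADPH (-1.79), and OSGIN1 (-1.70). These values and those of the mu genes come from the same libraries.

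Tolerant against parental NOMO-1 in DMSO had 7 of 19 NRF2-list genes higher and 9 lower, where 28.2% of all genes were higher and 36.2% lower, the background of every list count in this comparison. Among them were NQO1 at -2.85 and AKR1C3 at 2.05. Of 16 genes of glutathione synthesis and supply 9 were higher and 3 lower, with CBS at 3.36, CHAC1, which degrades glutathione, at 3.07 and GGT5 at 2.89. Among the other transferases and relatives 2 of 9 were higher and 5 lower, with the microsomal MGST2 at a mean of 25.8 against 81.8 FPKM (-1.62), MGST3 at -0.76 and GSTZ1, of the zeta class, at -1.16. The peroxidase GPX1 (-1.81) and the glyoxalase GLO1 (-1.43) were lower and GPX7 (1.37) was higher. Of 6 efflux pumps 2 were higher and none lower, ABCC1 by 1.38. The alpha-class genes GSTA1, GSTA2, GSTA3 and GSTA5 were listed at 0 in all libraries, and GSTA4 was at 1.91 to 13.4 FPKM in A375.

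The genes whose pattern over the 9 A375 group means was most like that of GSTM3, by Pearson's r of log2(FPKM + 1) among 12085 genes at 5 FPKM or more in some group, were TRMT1L (0.97), TAGLN2P1 (0.95), ZNF140 (0.95), ZNF320 (0.95) and DAP3 (0.95). The 9 points share 3 populations, and the clone 1 means near 0 were among the values GSTM3 was chosen by, so r is given as a description. The levels differ: GSTM3 went from 0.0193 to 52.6 FPKM, while TRMT1L was at 8.93 to 12.0 FPKM in clone 1, 11.3 to 15.7 in parental cells and 11.0 to 15.5 in clone 4, with parental and clone 4 cells overlapping. DAP3 was at 76.7 to 92.5, 104 to 133 and 123 to 146 FPKM in the same order.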

How the data were processed

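RNA sequencing covered 26 libraries, 2 in each of 13 groups, taken from the sample titles, also for 4 untreated libraries of the clones that another label field calls parental. Per the submitters' processing notes, the authors aligned reads to hg19 with TopHat 1.4.1 and estimated expression with Cufflinks; the sources used here do not give its version, the annotation release or the strandedness. The deposited values are FPKM per gene, with no counts, so counting error is unknown. A 24 h treatment of A375 that the protocol names is not analysed here.

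Genes that reached 1 FPKM in 2 or more of a line's libraries were fitted as log2(FPKM + 1) with limma 3.58.1 in R 4.3.3 (trend and robust options), 16935 genes in 18 A375 libraries and 16753 in 8 NOMO-1 libraries. Genes with missing values in NOMO-1 columns, 36 in all, were left out there. Tests were two-sided, with Benjamini-Hochberg adjustment of p-values across the genes of each of 14 comparisons and a threshold of 0.05. Code was checked on simulated data.

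The 9 members and the lists were chosen with earlier results of these data known, and so was the omission of 3 A375 libraries. All 9 are named in every comparison; of each related list up to 4 genes with the smallest adjusted p could be named (some results are not reported here), and genes within 1 Mb of a member were chosen after their values were seen. For symbols with several rows the row with the highest mean was used. Upstream windows and their build are RefSeq's, coding sequences are those of GENCODE release 29, read with Biopython 1.88 in Python 3.11.15.

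Alternatives were a pseudocount of 0.1, a filter at 5 FPKM or none, quantile and median-ratio scaling, and a replicate block. Others were limma with neither the trend nor the robust option, fits of the compared libraries alone, and a required absolute log2 change of 1. Each library was also corrected for GC content and transcript length. Single libraries were left out, and so were the 3 named A375 libraries together.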

Additional observations from a re-analysis of the deposited data

Results flagged for a closer look

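The effect of CPI203 differed between tolerant and parental NOMO-1 cells for 4 genes, by the test of the difference itself (limma, Benjamini-Hochberg adjusted, n = 2 libraries per group). The difference, tolerant minus parental on the log2 scale, was -1.53 for GSTM3 (adjusted p = 0.000463), -0.86 for GSTM4 (adjusted p = 0.0106), -0.65 for GSTM2 (adjusted p = 0.0136) and 0.79 for MGST1 (adjusted p = 0.000341). The GSTM2 difference did not pass with a pseudocount of 0.1 (adjusted p = 0.0717), without parental CPI203 replicate 1 (0.0584) or without tolerant DMSO replicate 2 (0.0597). The CPI203 effects behind these values were 1.33 and -0.21 for GSTM3, 0.40 and -0.47 for GSTM4, 0.88 and 0.23 for GSTM2, and -0.89 and -0.10 for MGST1, in parental and tolerant cells in that order. Of all 16753 tested genes, 31.8% passed this test. With 2 libraries per group no library could be singled out within a group.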

How the results depend on the processing

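Of the 38 member results that passed, 25 passed under every alternative other than the fold threshold, 13 were lost under at least 1, and 0 reversed. Of 58 results for other named genes 57 passed under every alternative. Members passing out of those tested moved by over 1.5 times as follows. With an absolute log2 change of at least 1, which is stricter by construction, they went from 2 to 0 for CPI203 in parental A375, from 5 to 1 in parental NOMO-1 and from 2 to 0 in tolerant NOMO-1, from 8 to 4 for untreated clone 4, from 5 to 3 for tolerant NOMO-1 in DMSO, from 4 to 1 for its difference of effects, and, for DMSO against untreated, from 1 to 0 in parental cells, 2 to 0 in clone 1 and 6 to 2 in clone 4. Without the 3 libraries left out together, 3 groups keep 1 library each, so the members passing are given no number. They moved for CPI203 in all 3 A375 populations, the clone 1 difference of effects and parental DMSO against untreated. With only the compared libraries they were 1 for CPI203 in clone 1, 1 for clone 4 in DMSO and 0 for parental DMSO against untreated. With no filter they were 1 for CPI203 in tolerant NOMO-1 and 0 for parental DMSO against untreated, with a pseudocount of 0.1 they were 1 for CPI203 in parental A375, and for clone 1 DMSO against untreated they were 4 after quantile normalization and 1 after median-ratio scaling. Apart from the strictness of the fold threshold and the smaller fits, the cause was not tested.

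Leaving out each replicate gave 1 to 3 for CPI203 in parental A375, 0 to 0 in clone 1, 0 to 6 in clone 4, 4 to 5 in parental and 0 to 2 in tolerant NOMO-1; 3 to 7 for clone 4 in DMSO (7 without clone 4 DMSO replicate 2), 7 to 7 untreated and 4 to 5 for tolerant NOMO-1; 0 to 0 for both A375 differences of effects and 3 to 4 for NOMO-1; and 0 to 1, 1 to 2 and 5 to 7 for DMSO against untreated in parental cells, clone 1 and clone 4. The replicate number marks no shared batch in the labels. With it as a replicate block, MGST1 passed for CPI203 in clone 1 (adjusted p = 0.045) and clone 4 (adjusted p = 0.0295), a count of 1 in place of 0 in each, and GSTK1 in parental NOMO-1 (adjusted p = 0.0129) and its difference of effects (adjusted p = 0.0219), counts of 6 and 5. For 3 comparisons whose same-numbered libraries deviated in opposite directions, pairing crossed numbers, added after seeing the data, gave the same counts, 0, 8 and 6. After correction for length and GC content the share of higher calls over all genes moved from 70.1% to 49.9% for clone 1 DMSO against untreated, from 68.6% to 50.2% for clone 4, and for CPI203 from 38.1% to 50.4% in clone 1 and from 37.5% to 50.2% in clone 4. The deposited FPKM give no depth, so values near 0 carry an unknown counting error.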

Other observations

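PTGES, the microsomal prostaglandin E synthase of the same membrane protein family as MGST1, had a mean of 51.3 FPKM in untreated parental A375 and 0.0378 in untreated clone 4 (log2 difference -5.66, limma adjusted p = 2.64e-12, n = 2 libraries per group). With CPI203 it went from a mean of 36.2 to 4.73 FPKM in parental A375 (log2 -2.71 ± 0.12, adjusted p = 1.27e-08). In clone 4 with DMSO its mean was 0.0517 FPKM, which leaves no room for a fall, so the CPI203 effects are not compared. MGST2, another member of the family, was lower with CPI203 in parental A375, at a mean of 5.91 against 12.7 FPKM (log2 -0.98), and in parental NOMO-1, at 30.3 against 81.8 (log2 -1.41).

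Near GSTP1, which did not pass for CPI203 in parental A375, the T-box gene TBX10 was at 7.25 and 5.99 FPKM with CPI203 against 0.0396 and 0.236 with DMSO (log2 2.74), and NUDT8 at 11.2 and 10.6 against 3.23 and 2.84 (log2 1.56). In parental NOMO-1 NUDT8 was at 4.99 and 4.66 FPKM with CPI203 against 19.5 and 14.8 with DMSO, and TBX10 at 0.0190 or lower.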
